A study of Mus musculus with 44 samples.

Results

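DNA methylation in whole blood taken 12 h after an injection of lipopolysaccharide (LPS, an endotoxin from the outer membrane of Gram-negative bacteria) was compared with whole blood taken after saline. The comparison covers 7 of the 44 libraries of the series, 3 LPS 12 h libraries and 4 saline libraries, and all 1083654 cytosines of the table that holds both groups. Every library was made by reduced representation bisulfite sequencing (RRBS), which reads CpG-rich restriction fragments and gives, at each cytosine, the percent of molecules that are methylated. The series also profiled hippocampus and frontal cortex at 6, 12 and 24 h and blood at 6 and 24 h.

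The animals were wild-type male C57BL/6J mice aged 8 to 12 weeks, and both groups had gone through the same model of Gulf War Illness. They drank corticosterone (CORT, the main glucocorticoid of rodents) at 200 mg/L in 0.6% ethanol over 7 days and received diisopropyl fluorophosphate (DFP, an irreversible acetylcholinesterase inhibitor, 4 mg/kg, intraperitoneal) on day 8. Further 7-day courses of CORT, in alternate weeks, brought the model to 5 weeks. The LPS 12 h group then received LPS (0.5 mg/kg, subcutaneous) and was sampled 12 h later, and the saline group received saline and was sampled at 6 h. The effect of LPS and that of the longer interval therefore cannot be told apart in these 7 libraries. No group without CORT and DFP enters the comparison. The labels do not say whether the replicates came from separate mice, so the p-values measure the spread between these libraries, which may be technical.

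Methylation of CpG sites is copied at each cell division by DNMT1, set anew by DNMT3A and DNMT3B and removed through oxidation by the TET enzymes. Promoters of genes in use are usually free of it, and each blood lineage carries its own pattern of unmethylated promoters and enhancers, laid down during haematopoiesis under factors such as PU.1 and RUNX1. DNA from whole blood comes almost entirely from leukocytes, since mature red cells and platelets of mammals have no nucleus. In bulk DNA, a changed share of cells that carry a given state and a changed level within cells cannot be told apart.

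The largest promoter differences were at regions that stood near 0 or were highly methylated after LPS and that lay in between in saline. The 250 bases before the start of 6 genes show where the measured CpGs of such regions lie, and are given 5′ to 3′ on the strand of the gene with each measured CpG in capitals. Sequences are RefSeq's, on GRCm38.p6. Of the 6, Rps6ka1 (a kinase of the ribosomal S6 family that acts below ERK), Dok3 (an adaptor that dampens signalling in B cells and myeloid cells), Tmem150b (a transmembrane protein) and Csf3r (the receptor for granulocyte colony-stimulating factor, needed for neutrophil production) were lower after LPS. Dgka (diacylglycerol kinase alpha, which limits T cell receptor signalling) and Fam47e were higher.
Rps6ka1, chr4:133873036-133873285, minus strand: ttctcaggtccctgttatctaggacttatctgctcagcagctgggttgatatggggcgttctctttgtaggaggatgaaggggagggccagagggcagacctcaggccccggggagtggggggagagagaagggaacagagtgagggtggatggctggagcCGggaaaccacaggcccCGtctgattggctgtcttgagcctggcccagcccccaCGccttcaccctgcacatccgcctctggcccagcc
Dok3, chr13:55528539-55528788, minus strand: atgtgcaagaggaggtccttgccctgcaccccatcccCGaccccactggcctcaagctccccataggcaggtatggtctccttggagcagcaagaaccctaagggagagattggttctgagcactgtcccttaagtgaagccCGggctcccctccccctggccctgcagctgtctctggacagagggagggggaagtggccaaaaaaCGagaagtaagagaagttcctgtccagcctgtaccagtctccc
Tmem150b, chr7:4725252-4725501, minus strand: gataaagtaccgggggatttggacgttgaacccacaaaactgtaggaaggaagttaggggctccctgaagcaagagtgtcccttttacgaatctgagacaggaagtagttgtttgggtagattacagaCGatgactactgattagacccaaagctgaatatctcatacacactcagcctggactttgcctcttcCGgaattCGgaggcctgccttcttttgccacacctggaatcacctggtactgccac
Csf3r, chr4:126024409-126024658, plus strand: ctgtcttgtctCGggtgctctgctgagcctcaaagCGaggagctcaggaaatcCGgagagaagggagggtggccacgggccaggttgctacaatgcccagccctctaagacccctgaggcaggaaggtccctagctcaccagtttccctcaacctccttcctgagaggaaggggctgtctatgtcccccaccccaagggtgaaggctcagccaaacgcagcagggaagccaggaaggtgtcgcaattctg
Dgka, chr10:128737613-128737862, minus strand: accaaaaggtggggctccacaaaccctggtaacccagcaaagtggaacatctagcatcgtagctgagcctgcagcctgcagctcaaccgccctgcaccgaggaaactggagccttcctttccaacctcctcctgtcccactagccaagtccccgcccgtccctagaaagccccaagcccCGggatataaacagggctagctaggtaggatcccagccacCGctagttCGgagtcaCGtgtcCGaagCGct
Fam47e, chr5:92554798-92555047, plus strand: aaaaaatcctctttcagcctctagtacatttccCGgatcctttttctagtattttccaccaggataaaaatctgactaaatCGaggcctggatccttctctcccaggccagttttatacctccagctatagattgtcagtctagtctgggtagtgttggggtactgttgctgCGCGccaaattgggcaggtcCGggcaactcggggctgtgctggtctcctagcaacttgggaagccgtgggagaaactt

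The 3 measured CpGs of the Dok3 stretch lay 213, 108 and 43 bases before the gene start. Their mean levels were 1.59, 3.23 and 1.17% after LPS, against 59.7, 51.6 and 23.5% in saline. The 3 measured CpGs of Tmem150b averaged 1.39, 3.98 and 3.64% after LPS, against 55.4, 54.6 and 54.9% in saline, and those of Csf3r averaged 1.15, 1.19 and 1.91% after LPS, against 21.7, 39.0 and 23.8% in saline. In each of these promoters, all CpGs measured in the stretch stood near 0 after LPS and at intermediate levels in saline. The opposite held for Dgka, whose 6 measured CpGs averaged between 72.1% (71 bases before the start) and 90.9% (23 bases before it) after LPS and between 17.0 and 25.6% at the same bases in saline. The 5 measured CpGs of Fam47e averaged 82.8 to 97.4% after LPS, against 32.1 to 37.5% in saline.

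The saline libraries stood apart from the LPS blood libraries over much of the genome, also at loci chosen to separate LPS blood from brain. On 1000 bp tiles with at least 3 cytosines, Pearson's r between 2 LPS 12 h libraries was 0.992 to 0.995 and that between 2 saline libraries was 0.993 to 0.994, while an LPS 12 h library and a saline library gave 0.926 to 0.931. The LPS 12 h libraries gave 0.989 to 0.996 with the LPS blood libraries of 6 and 24 h. These coefficients describe tiles, which are not independent, and carry no test.

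To check the label, tiles were taken that were under 10% in the LPS blood of 6 and 24 h and over 80% in saline hippocampus and cortex, without reference to the 7 libraries compared. The medians over these 40 tiles were 2.46, 3.94 and 4.93% in the LPS 12 h libraries, against 61.4, 61.1, 62.1 and 58.4% in the saline blood libraries, and 86.5% in saline hippocampus and 85.4% in saline cortex. The 40 tiles include parts of Cd247 (a signalling chain of the T cell receptor), Ptpn6 (the phosphatase SHP-1 of leukocytes) and Nckap1l (an actin regulator of leukocytes). In 48 tiles chosen the opposite way, the medians were 89.9, 90.2 and 90.7% in the LPS 12 h libraries, against 32.4, 26.6, 27.9 and 30.2% in saline blood, 5.63% in hippocampus and 5.30% in cortex. All 4 saline libraries lay between LPS blood and brain at both kinds of tile, with no overlap of the medians. The tiles were chosen with LPS blood and brain at opposite ends, so a library that differs from LPS blood there can hardly lie elsewhere. Over called tiles, saline blood lay between in 44.6% of those that rose and 56.3% of those that fell. The shares were 47.6 and 52.3% among tiles without a call. Whether the 4 libraries labelled saline hold DNA of other tissue, are mixtures or carry the wrong label was not tested. Each comparison with saline rests on these same 4 libraries, so each difference from saline is one between the libraries labelled LPS and those labelled saline.

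**Figure D1:**
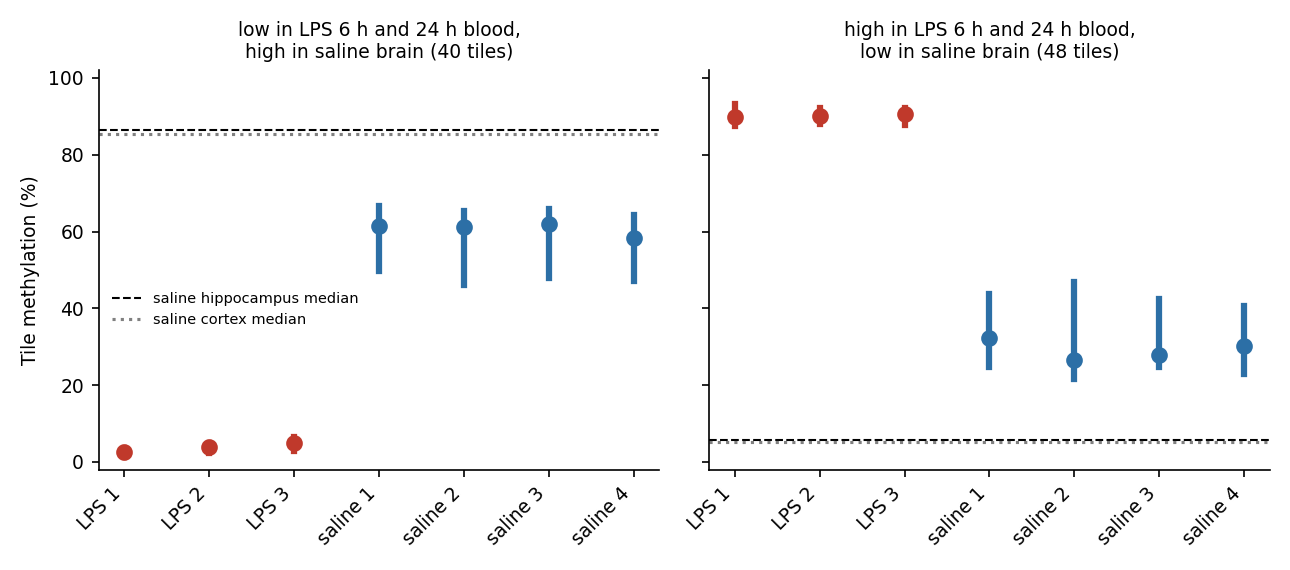
Methylation (%) of tiles that set LPS blood of 6 and 24 h apart from saline brain, in each LPS 12 h (red) and saline (blue) blood library. Points are medians, bars span the middle 50% of tiles, and the lines are the medians of saline hippocampus and cortex, so the saline medians of 58.4 to 62.1% (left) and 26.6 to 32.4% (right) can be read against both.

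Mean methylation over all cytosines was 33.9% ± 0.738 after LPS (SD, n = 3) and 31.5% ± 0.202 in saline (SD, n = 4). The library means were 33.1, 34.2 and 34.5% after LPS, against 31.3, 31.6, 31.6 and 31.3% in saline, a difference of 2.45 points with no overlap between groups. An exact permutation test over the 3 and 4 libraries gave a two-sided p of 0.0571, the smallest that it can give, so that no difference of this kind could pass 0.05. The median over cytosines, by contrast, was 2.80% after LPS and 2.68% in saline, with an exact permutation p of 0.8. What separated the groups more was the middle of the scale. Cytosines between 20 and 80% made up 10.81, 10.01 and 10.01% of the LPS libraries, against 15.3, 15.9, 15.8 and 15.6% of the saline libraries. Cytosines over 80% made up 28.0 to 30.0% after LPS and 23.7 to 24.0% in saline, while those under 20% made up 60.0 to 61.2% after LPS and 60.2 to 60.8% in saline. The exact permutation p for the share at 20 to 80% was again 0.0571.

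**Figure D2:**
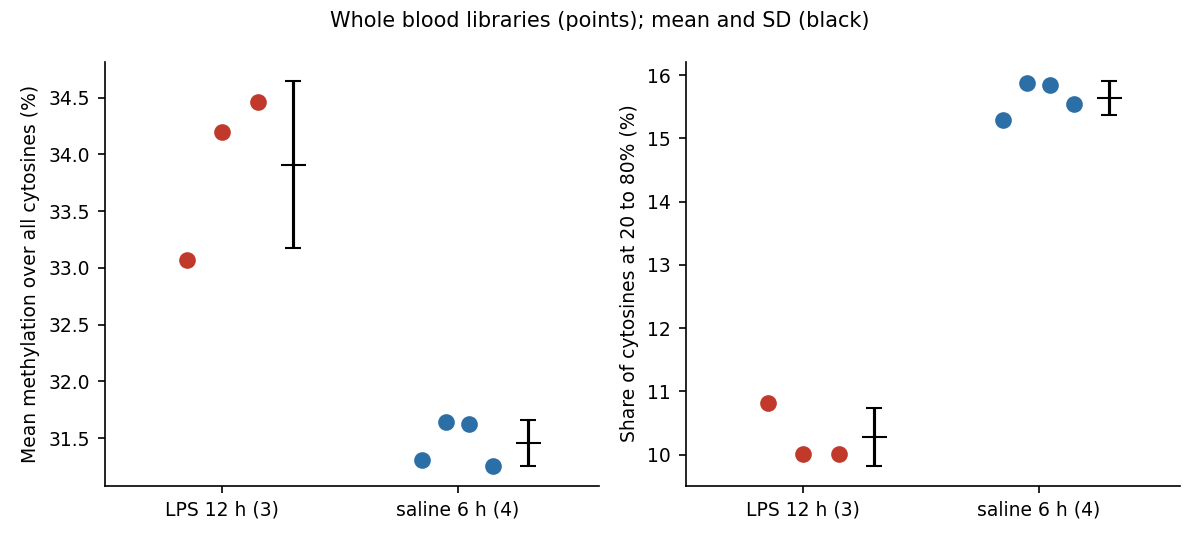
Mean methylation over all cytosines (left, %) and share of cytosines between 20 and 80% (right, % of cytosines) in each blood library, with the group mean and SD in black. The axes do not start at 0. LPS 12 h libraries average 33.1 to 34.5% and hold 10.01 to 10.81% intermediate cytosines, and saline libraries average 31.3 to 31.6% and hold 15.3 to 15.9%.

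Differences were then tested feature by feature with limma, with Benjamini-Hochberg adjustment over everything tested. It compares group means against the spread of each feature, drawn towards a trend fitted over all features. Of 412522 cytosines with a mean of 5 to 95%, 95165 rose and 29424 fell by at least 10 points at an adjusted p under 0.05, which is 30.2% called (23.1% higher and 7.13% lower). Of 61842 tiles, 21402 rose and 6133 fell by at least 5 points (44.5% called, 34.6% higher and 9.92% lower). Subtracting from each library its own mean turned the split to 13740 tiles higher and 20960 lower after LPS. Centring lowers every LPS tile by the same number of points relative to saline, so the change of split follows from the subtraction. Directions are given on the uncentred percent scale unless said otherwise.

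The size of the change depended on where saline stood. Among tiles at 20 to 50% in saline, 67.7% rose and 16.6% fell, with a median difference of 27.7 points, and among tiles at 50 to 80%, 56.7% rose and 15.2% fell, with a median of 10.4 points. Tiles at 80 to 100% in saline rose in 14.9% and fell in 5.70% of cases. The contrast was one-sided at the extremes. Over the 20850 tiles under 5% after LPS, saline reached as high as 72.7% and none reached 80%, and over the 29614 tiles above 90% after LPS, saline was as low as 20.5% and none lay under 20%. Over the 21191 tiles under 5% in saline, LPS reached 37.0%. Tiles over 90% in saline numbered 20610, and the lowest LPS level among them was 57.4%.

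**Figure D3:**
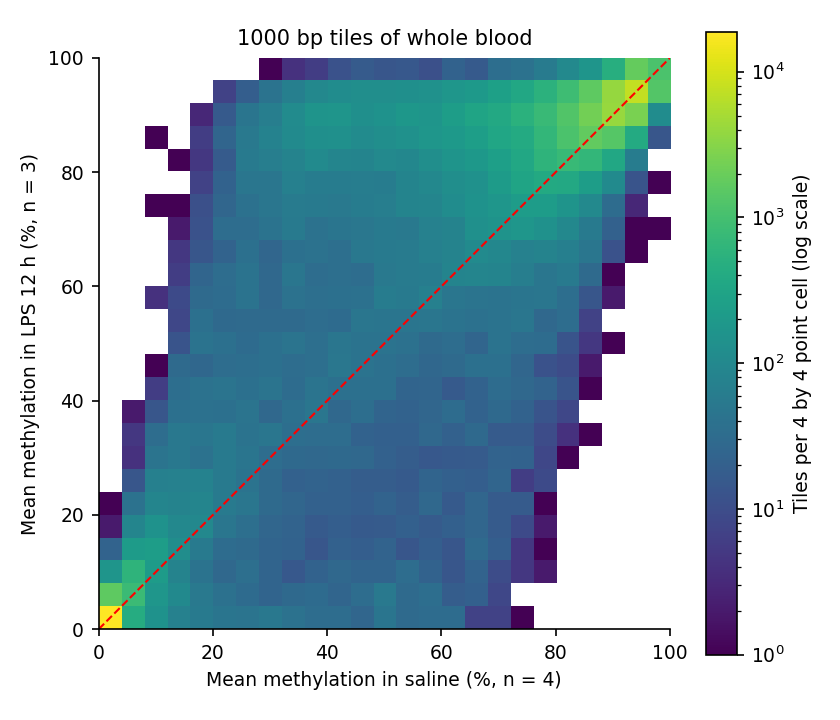
Mean methylation of 87403 tiles of 1000 bp in LPS 12 h blood (vertical, %, n = 3) against saline blood (horizontal, %, n = 4), with the number of tiles in each 4 by 4 point cell on a log colour scale. Away from the corners at 0 and 100%, tiles spread up and down from the dashed line of equality. Where LPS is under 5%, saline stays at or under 72.7%, and where LPS is over 90%, saline stays at or above 20.5%.

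Called tiles were also read in saline brain, as the mean of hippocampus and cortex. They were chosen for LPS blood that is high or low against saline, so the shares that follow are set beside those of tested tiles without a call. Of 18850 tiles that rose and were also measured in all tables used, brain was lower than LPS blood in 16429 (87.2%), and saline blood lay between the 2 in 8399 (44.6%). Of 5045 tiles that fell, brain was higher than LPS blood in 4388 (87.0%), and saline blood lay between in 2839 (56.3%). Among tiles without a call, brain was lower than LPS blood in 67.0% of the 16973 where LPS blood was above saline, and higher in 70.6% of the other 11710, and saline blood lay between in 47.6 and 52.3%. The median levels at tiles that rose were 87.7% in LPS blood, 62.9% in saline blood and 64.7% in saline brain. Those at tiles that fell were 32.7% in LPS blood, 63.4% in saline blood and 67.8% in saline brain. The brain median thus lay between the 2 kinds of blood at tiles that rose and beyond saline blood at tiles that fell. These shares describe tiles and carry no test.

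Promoters were measured as windows from 1000 bases before to 500 after a gene start. Windows with at least 3 cytosines numbered 10690, most of them near 0, and 1559 had a mean of 5 to 95% and were tested. Of these, 599 rose and 144 fell by at least 5 points (47.7% called, 38.4% higher and 9.24% lower). Centring each library turned this to 354 higher and 413 lower.

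The 10 windows with the largest falls, from 44.1 to 58.3 points, belong to 9 genes, among them genes of platelets, T cells, B cells and myeloid cells. The largest was at the middle of the 3 starts of Rps6ka1 (window chr4:133874231-133875731, 5 cytosines). It had 4.97, 3.88 and 3.49% after LPS, against 67.0, 62.3, 64.7 and 55.8% in saline. The difference was -58.3 points (SE 2.76, limma adjusted p = 3.58e-06). A second, separate window of the same gene (chr4:133872535-133874035, 13 cytosines), whose promoter is printed above, had 0.641, 3.39 and 4.79% after LPS, against 52.9, 57.1, 49.9 and 51.1% in saline. Of the 3 start windows of Rps6ka1, these 2 therefore stood under 5% after LPS and above 49% in every saline library. The third (57 cytosines), at the start furthest upstream, was low in both groups, at 1.65% after LPS and 1.13% in saline.

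Pf4 encodes platelet factor 4, a chemokine stored by platelets and their precursors. Its window (chr5:90771435-90772935, 9 cytosines) had 3.23, 8.71 and 5.61% after LPS, against 64.1, 54.5, 56.6 and 62.1% in saline. Tnfsf14 encodes LIGHT, a ligand of the tumour necrosis factor family made by activated T cells, and its window had 1.28, 1.10 and 4.04% after LPS, against 53.7, 58.0, 51.7 and 57.6% in saline. Dok3 had 1.26, 2.54 and 4.32% after LPS, against 50.4, 53.6, 49.3 and 54.5% in saline over 13 cytosines. Groups were more than 40 points apart at each of these 3 windows. Gimap1, a GTPase needed for the survival of mature lymphocytes, averaged 1.15% ± 0.486 after LPS (SD, n = 3) and 47.0% ± 3.30 in saline (SD, n = 4). Haao, an enzyme of the kynurenine pathway of tryptophan breakdown, averaged 9.77% ± 5.45 after LPS and 63.1% ± 8.93 in saline. Cd63, a tetraspanin of late endosomes and granules, was the widest of the 10 after LPS, at 3.91, 10.02 and 18.4%, against 57.9, 58.1, 51.2 and 52.5% in saline. Tmem150b and Spata13 completed the 10, at 3.73 and 3.03% after LPS and 55.1 and 52.5% in saline.

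The 10 windows with the largest rises differed by 54.8 to 69.8 points. Slc25a25, a calcium-regulated carrier of ATP in mitochondria, had 88.2, 90.5 and 93.8% after LPS, against 18.9, 17.99, 23.5 and 23.8% in saline, a difference of 69.8 points (SE 2.47, limma adjusted p = 1.80e-06). Fbxw7, the substrate receptor of a ubiquitin ligase that marks cyclin E and MYC for breakdown, had 78.4, 90.3 and 86.9% after LPS, against 24.9, 22.3, 26.0 and 22.4% in saline. Dgka had 81.6, 72.5 and 80.1% after LPS, against 21.4, 21.1, 27.2 and 23.3% in saline. The groups were more than 40 points apart at each of these 3 windows. The window of Slc6a16, a member of a transporter family, shares bases with that of Cd37, a tetraspanin of lymphocytes. The 4 cytosines measured within 1000 bp of the Cd37 span all lie from 45235483 to 45235536, outside the Slc6a16 window (chr7:45239753-45241253). The 31 cytosines of the Slc6a16 window averaged 88.9% ± 1.61 after LPS (n = 3) and 30.0% ± 2.81 in saline (n = 4). Col18a1 (collagen XVIII), Crybg2, Cbr2 (a carbonyl reductase), Fam47e, Abr (a GTPase activator for Rac) and 6330409D20Rik averaged 83.7 to 95.7% after LPS, against 20.8 to 35.5% in saline. Several of these windows sit at 1 of several starts of the gene: Slc25a25 and Fbxw7 have 3 windows each, Abr has 5, and Dgka, Col18a1 and Fam47e have 2. The other measured windows of Slc25a25, Fbxw7, Abr and Col18a1 stood at 0.304 to 8.02% after LPS and at 0.373 to 2.83% in saline.

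**Figure D4:**
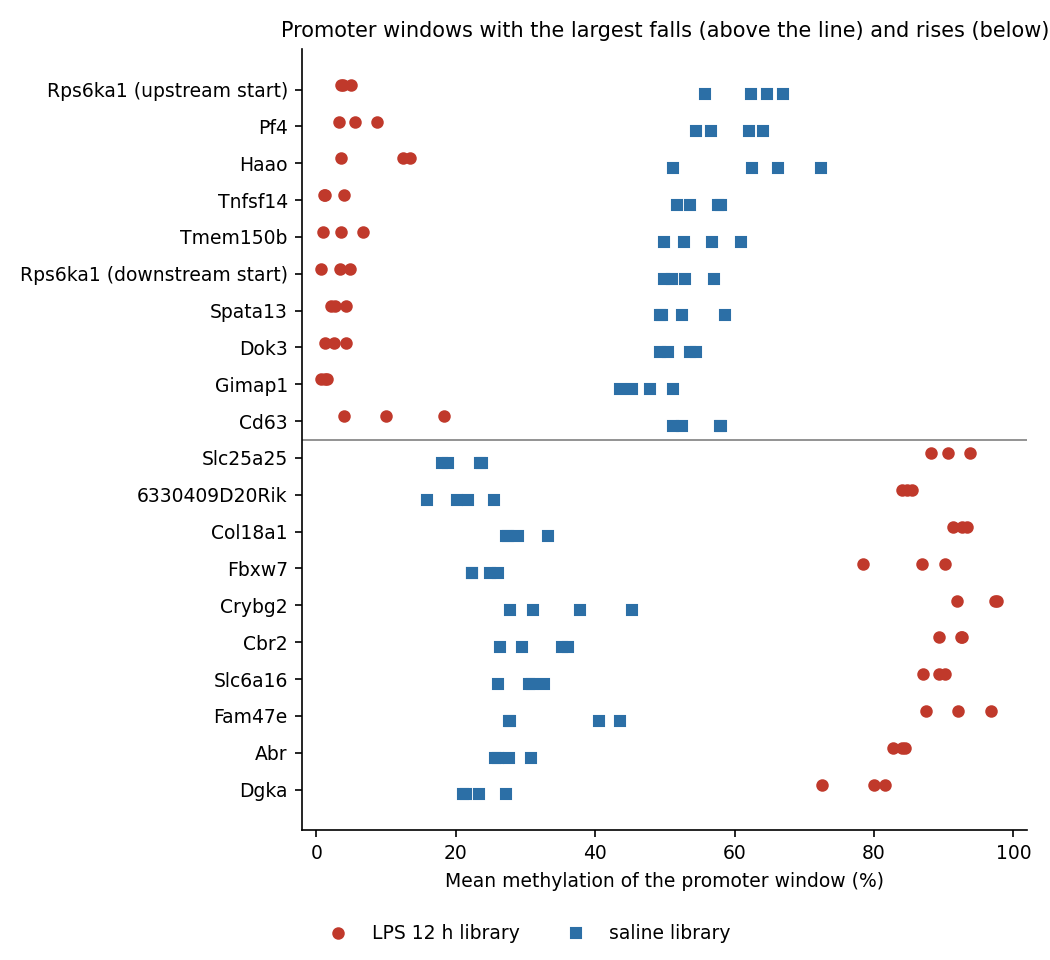
Mean methylation (%) of the 20 promoter windows with the largest falls (above the grey line) and rises (below it) among windows with at least 5 cytosines and groups that do not overlap. Red circles are the 3 LPS 12 h libraries and blue squares the 4 saline libraries. The upstream and downstream starts of Rps6ka1 are so named among those shown, and another start lies further upstream. After LPS the falls stand between 0.618 and 18.4% and the rises between 72.5 and 97.7%, and no saline library leaves the range from 15.8 to 72.4%.

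The named windows were also read in LPS blood of the other times and in brain. On the cytosines common to all tables used, the downstream Rps6ka1 window averaged 5.62, 3.12 and 0.937% at 6, 12 and 24 h after LPS, Dok3 averaged 5.07, 2.71 and 2.23%, and Slc25a25 averaged 84.6, 90.9 and 88.3%. In saline brain, Rps6ka1 stood at 72.0% in hippocampus and 75.7% in cortex and Slc25a25 at 3.04 and 1.10%. The windows were named for the largest gaps between LPS and saline, and the count that follows has no share over all windows beside it. Among tiles, saline blood lay between LPS blood and brain in 44.6% of those that rose and 56.3% of those that fell. The shares were 47.6 and 52.3% without a call. Of the 20 named windows, 17 have common cytosines, and in 13 of these both brain tissues lay beyond saline blood, on the side away from LPS blood. In Spata13 cortex did so, at 56.5%, while hippocampus stood at 35.7%, beside 52.5% in saline blood. In Col18a1, Cbr2 and Crybg2 neither tissue did. Crybg2 stood at 95.7% in LPS 12 h blood, 35.5% in saline blood, 43.4% in hippocampus and 80.9% in cortex. The windows of Col18a1 and Cbr2 were at 91.9 and 91.5% in LPS 12 h blood, at 27.8 and 31.8% in saline blood, and at 63.7 and 65.3% in saline hippocampus.

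A set of 4 short motifs was searched for, on both strands, in the 300 bases around each start (250 before and 50 after). GAGGAAGT, a core bound by PU.1, was present in 11 of the 144 promoters that fell (7.64%), in 8 of the 599 that rose (1.34%), in 15 of the 816 tested without a call (1.84%) and in 3.10% of all 19136 promoters placed. Among the 20 named windows, Pf4 and Gimap1 hold it. TGTGGTT, bound by RUNX factors, was in 8.33% of promoters that fell and 4.84% of those that rose, against 4.87% of all. For TGACTCA, the AP-1 site, the shares were 4.17 and 7.68%, against 4.70% of all. The NF-kB site of the immunoglobulin kappa enhancer was in 2 of the 144 promoters that fell (1.39%), in 1 of the 599 that rose (0.167%), in 0 of the 816 without a call and in 26 of all 19136 (0.136%). These are counts of letters, with no test, and the motifs were not searched outside the 300 bases.

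Genes were also summarised over their whole span with 1000 bp on either side, which mixes promoters, bodies and ends. Of 12004 genes tested, 5777 rose and 949 fell at an adjusted p under 0.05 (56.0% called, 48.1% up and 7.91% down), with a median difference of 1.66 points. Centring each library gave 2722 higher and 5517 lower. Lists of genes are read against these shares. A list in which near 48.1% of genes rose and 7.91% fell moved as all genes tested did.

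Genes of leukocytes fell in 13 of 28 and genes of neutrophils in 9 of 12 cases, beside 7.91% of all genes tested. Across the leukocyte list 9 genes also rose, with a median of -3.59 points (7 and 17 after centring). Of the neutrophil genes 1 rose, with a median of -21.3 points (1 and 10 after centring). The mean of the 12 genes was 39.0 to 45.7% in the LPS libraries, against 61.6 to 63.9% in the saline libraries. Mpo (myeloperoxidase), Ctsg (cathepsin G) and Cebpe (the factor that drives late granulocyte maturation) averaged 41.7, 33.3 and 20.5% after LPS, against 77.4, 66.1 and 60.9% in saline. Prtn3, Lcn2, Mmp8, Mmp9 and Camp, all granule proteins, fell as well, and Padi4, which drives the release of neutrophil chromatin, was the member that rose. Elane and Ltf, also granule proteins, did not pass, at 79.1 and 87.7% after LPS, against 81.0 and 88.3% in saline.

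Csf3r (chr4:126023441-126044975) was measured at 5 cytosines, all from 126024279 to 126024463, upstream of the start whose sequence is printed above. It had 3.91, 6.65 and 2.58% after LPS, against 36.8, 35.3, 37.0 and 35.1% in saline, a difference of -31.7 points (SE 0.986, limma adjusted p = 9.67e-07). Spi1 encodes PU.1, the factor that directs myeloid development, and showed the largest fall among the listed myeloid genes. Over 13 cytosines inside the gene (chr2:91082374-91115759) it had 5.39, 8.77 and 11.1% after LPS, against 64.2, 71.2, 67.7 and 66.3% in saline. The difference was -58.9 points (SE 1.90, limma adjusted p = 1.09e-06), and groups were more than 50 points apart. On common cytosines Spi1 stood at 7.82, 7.24 and 5.06% in LPS blood at 6, 12 and 24 h, and at 75.4% in saline hippocampus and 77.0% in cortex. Ptprc, which encodes the common leukocyte antigen CD45, was at 0% in all 3 LPS libraries over 5 cytosines of the gene body, against 20.3, 38.4, 23.2 and 20.7% in saline (adjusted p = 0.00148 by limma). Here brain lay between the 2 kinds of blood, at 7.42% in saline hippocampus and 8.44% in saline cortex. Of 10 monocyte and macrophage genes, 2 rose and 4 fell (0 and 5 after centring). Itgam (the integrin chain CD11b) rose by 5.78 points, a call lost after centring, and Fcgr3 and Trem2 fell by 3.71 and 10.03 points.

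Not every leukocyte gene was lower after LPS. Cd37 had 89.5, 84.7 and 83.3% after LPS, against 25.4, 18.9, 14.1 and 11.3% in saline, over 4 cytosines inside the gene (chr7:45233632-45239340). Hcls1, a cortactin-like actin regulator of haematopoietic cells, had 97.8, 97.5 and 91.8% after LPS, against 41.3, 34.8, 38.2 and 35.4% in saline. Both rose by more than 55 points while Cytip and Cd48 fell, to 36.3 and 45.7% after LPS, against 73.1 and 71.7% in saline. Saline hippocampus stood at 12.1% for Cd37 and at 24.97% for Hcls1 on common cytosines.

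Lymphocyte lists moved in both directions. Of 19 T cell genes, 9 rose and 5 fell, and after centring 7 rose and 9 fell. Of 10 B cell genes, 5 rose and 2 fell, with the same counts after centring. Of 3 NK cell genes, Tbx21 (the factor T-bet) alone passed, with a rise of 2.41 points that turned to -0.708 points after centring. Cd3d, a chain of the T cell receptor complex, was at 0% in all 3 LPS libraries over 4 cytosines, against 66.3, 38.2, 29.6 and 58.3% in saline. Cd8a, the co-receptor of cytotoxic T cells, was higher after LPS at 87.2% ± 0.689, against 65.4% ± 3.85 in saline. Cd27 and Lat, both of T cell activation, fell by 26.2 and 19.6 points. Cd79b, part of the B cell receptor, fell to 4.99% ± 3.90 after LPS, against 25.3% ± 2.90 in saline, and Blk, Bank1 and Spib of the B lineage rose by 13.3, 8.75 and 9.66 points. Of 9 erythroid and platelet genes, 3 rose and 3 fell (3 and 5 after centring). Of 5 promoter windows of this list with at least 3 cytosines, 4 were tested. Lyl1, at 1.22% after LPS, could enter the test only with a higher saline level, so only as a fall. All 4 fell, beside 9.24% of all promoters tested. Pf4, Lyl1, Itga2b and Gp1bb stood at 5.85, 1.22, 21.9 and 31.4% after LPS, against 59.3, 27.9, 58.4 and 68.9% in saline. Over the whole gene, Itga2b (a chain of the platelet fibrinogen receptor) rose by 10.93 points instead.

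Markers of other cell types were set beside these. Of 13 epithelial genes, 11 rose and 1 fell, with a median of 6.31 points, and after centring 9 rose and 2 fell. Their mean was 39.4 to 42.8% in the LPS libraries, against 29.9 to 31.0% in the saline libraries, and no member was at 0 in either group. Krt5, a keratin of basal epithelium, had 76.7, 78.3 and 78.2% after LPS, against 38.7, 35.3, 37.7 and 33.1% in saline, and stood at 80.6% in saline hippocampus and 85.5% in cortex. Its promoter window averaged 84.5% ± 4.17 after LPS and 36.2% ± 3.03 in saline. Saline blood was thus less methylated at Krt5 than LPS blood and brain alike. This order was not particular to epithelial genes. Medians over all tiles that rose were 87.7% in LPS blood, 62.9% in saline blood and 64.7% in saline brain. On common cytosines, the promoter window of Ckm, of the muscle list, stood at 80.4% after LPS and 36.8% in saline blood. It stood at 51.0% in saline hippocampus and 62.4% in saline cortex. Cldn4 (a claudin of tight junctions), Trp63 (the factor p63 of stratified epithelium) and Prom2 averaged 61.0, 87.2 and 59.4% after LPS, against 24.8, 64.6 and 35.9% in saline. Krt8 was the member that fell, to 3.99% after LPS, against 18.1% in saline. The part that epithelial DNA may have in the difference between the groups was not tested.

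Endothelial genes rose in 7 and fell in 3 of 16 cases (4 and 9 after centring), and fibroblast genes rose in 9 and fell in 1 of 14 (4 and 4 after centring). Muscle genes rose in 9 of 18 cases (6 rose and 5 fell after centring), hepatocyte genes in 6 of 11 (5 and 3), and adipocyte genes rose in 6 and fell in 1 of 9 (3 and 1). Among all genes tested, 48.1% rose and 7.91% fell. Neuronal genes rose in 16 and fell in 1 of 19, with a median of 3.21 points, and this came to 6 and 3 with a median of 0.0900 after centring. Among them Syn1 (synapsin, on the X chromosome) averaged 43.9% after LPS and 13.7% in saline, and Shank3 averaged 44.5 and 30.7%. Col3a1, a fibrillar collagen of fibroblasts, averaged 45.7% after LPS and 14.7% in saline, and Ckm, the muscle creatine kinase, averaged 58.8 and 45.3%.

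**Figure D5:**
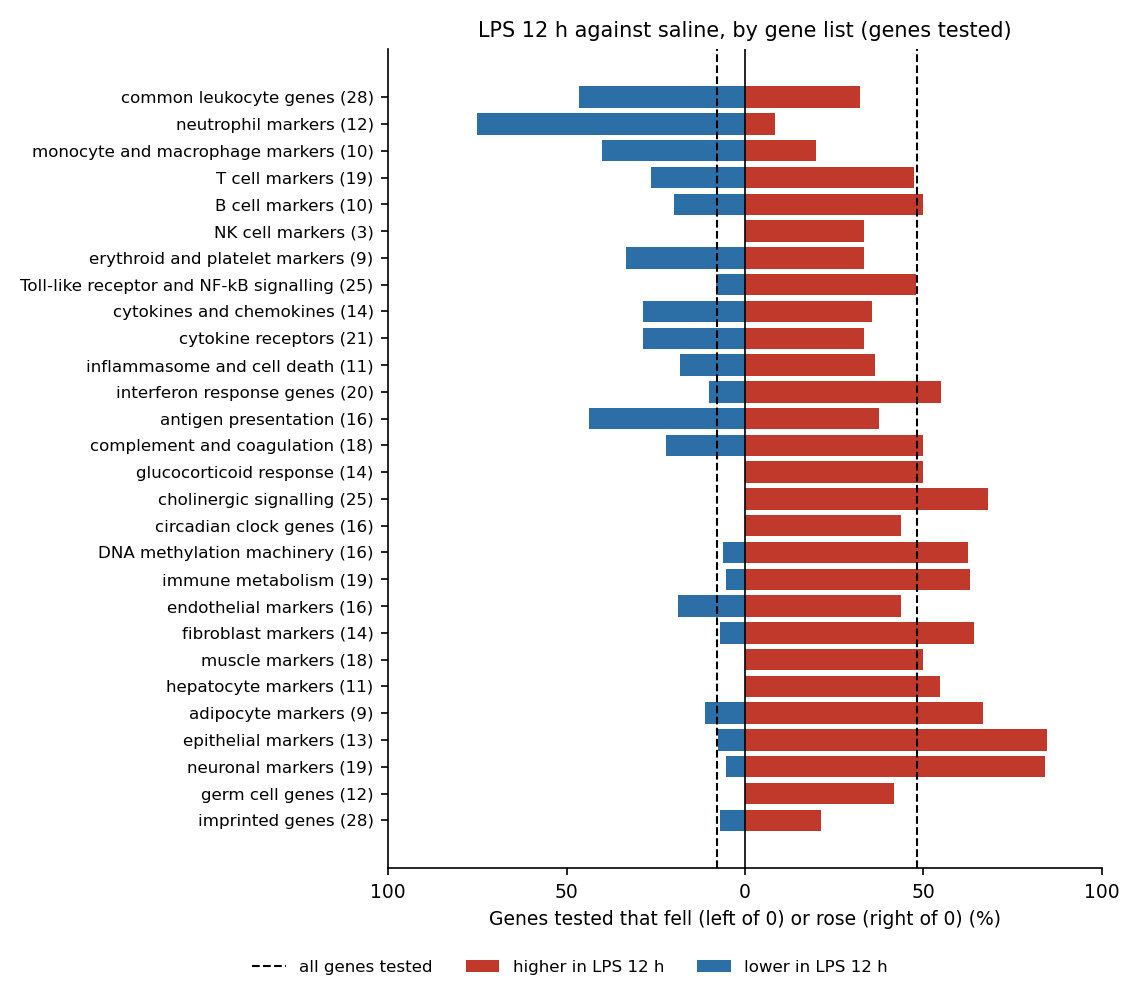
Percent of the tested genes of each list that rose (red, right of 0) or fell (blue, left of 0) in LPS 12 h against saline, with the number of genes tested in brackets and the shares over all 12004 genes as dashed lines (48.1% and 7.91%). Of the neutrophil genes 9 of 12 were lower, and epithelial genes 84.6% and neuronal genes 84.2% higher.

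LPS acts through TLR4 and MD-2 to activate NF-kB and the interferon factors, which switch on cytokine genes. Of 25 tested genes of the Toll-like receptor and NF-kB pathway, 12 rose and 2 fell, with a median of 1.69 points, near the 1.66 points of all genes. Centring turned the list to 4 higher and 12 lower. Nfkb1 and Traf3 rose to 22.1 and 49.98% after LPS, against 15.2 and 44.9% in saline. Nfkbiz, an atypical IkB protein that promotes Il6 transcription, rose to 12.4% after LPS, against 7.09% in saline. Tlr9 fell to 5.32% after LPS, against 10.4% in saline, with a limma adjusted p of 0.0396. That call was lost in 7 of the alternatives tried, among them leaving out LPS replicate 3, where the difference was -3.60 points. Fewer than 3 cytosines were read at Tlr4.

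Cytokine genes were few and mixed. Of 14 tested, 5 rose and 4 fell, and 2 and 6 after centring. Il12a, a subunit of interleukin 12, had 0.737, 1.35 and 2.04% after LPS, against 47.3, 47.1, 56.7 and 50.4% in saline, over 13 cytosines from chr3:68691277 to 68691543 inside the gene. Tnf had 89.6, 87.8 and 89.0% after LPS, against 62.1, 67.0, 67.2 and 63.1% in saline. The 3 cytosines of its promoter window overlapped between groups and did not pass, at 91.97% after LPS and 89.9% in saline (limma adjusted p = 0.378). The 5 cytosines counted for the gene all lie outside the gene span (chr17:35199367-35202007), within 1000 bp of its ends, and may equally belong to its neighbours. The 3 of the promoter window are among them, so the rise rests mostly on those past the other end of the gene. Ccl3 and Ccl4, chemokines that draw macrophages, were measured at the same 5 cytosines, which averaged 35.01% ± 7.41 after LPS and 74.4% ± 5.25 in saline. All 5 lie inside Ccl3 and 0 inside Ccl4, which they reach only within 1000 bp of its end. Both genes are counted among the 4 that fell, on this same stretch. Il1b, like Tlr4, had fewer than 3 cytosines.

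Of 21 cytokine receptors, 7 rose and 6 fell (3 and 13 after centring). Tnfrsf1b, which encodes TNF receptor 2, had 1.21, 1.63 and 0.680% after LPS, against 12.5, 14.1, 16.5 and 15.2% in saline. Csf2rb, the shared chain of the receptors for GM-CSF, IL-3 and IL-5, averaged 21.3% after LPS and 58.1% in saline. Il1r1 and its decoy Il1r2 rose by 20.1 and 13.8 points. Of 11 inflammasome genes, 4 rose and 2 fell (3 and 5 after centring). Nlrp3, the sensor of the best known inflammasome, did not pass, at 90.4% ± 1.89 after LPS and 89.0% ± 0.834 in saline (limma adjusted p = 0.350), and P2rx7, the ATP-gated channel that triggers it, fell by 7.57 points over the gene. The promoter window of P2rx7, with 3 cytosines, rose instead, to 87.5% after LPS, against 71.8% in saline (limma adjusted p = 0.00111).

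Interferon response genes were higher in 11 and lower in 2 of 20 cases, and in 4 and 7 after centring. Irf3 and Oas3 rose by 11.8 and 16.5 points, and Irf9 and Oas2 fell by 12.7 and 23.5 points. Of 11 promoter windows of this list with at least 3 cytosines, 3 had a mean level that allowed a test. All 3 fell, beside 9.24% of all promoters tested. Irf9, Trim25 and Oasl1 stood at 4.86, 2.04 and 24.8% after LPS, against 21.6, 11.8 and 33.5% in saline. Irf9 and Trim25, under 5% after LPS, could enter the test only with a higher saline level, so only as falls. The count of falls therefore follows in part from the limit on the mean. The call at Oasl1 was lost without LPS replicate 2 (limma adjusted p = 0.0541) and with no limit on the mean level (0.0845). Antigen presentation genes rose in 6 and fell in 7 of 16 cases (5 and 9 after centring), with H2-DMa, which loads peptides on class II molecules, up by 11.3 points and the co-stimulators Cd40 and Cd80 down by 12.3 and 7.64 points. Complement and coagulation genes rose in 9 and fell in 4 of 18 cases (9 and 5 after centring). Serping1, the C1 inhibitor, had 75.3, 75.3 and 78.3% after LPS, against 11.3, 14.6, 23.4 and 17.2% in saline, while C5ar1, the receptor for C5a, fell to 67.0% after LPS, against 85.5% in saline.

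Because every mouse had received CORT and DFP, genes of glucocorticoid response and of cholinergic signalling were examined too, with both exposures shared by the groups. Of 14 glucocorticoid genes, 7 rose and the other 7 did not pass, and after centring 5 rose and 6 fell. Fkbp5, a co-chaperone that restrains the glucocorticoid receptor, had 6.54, 6.45 and 6.68% after LPS, against 5.89, 6.57, 5.85 and 5.92% in saline, a difference of 0.497 points that did not pass (limma adjusted p = 0.144). That difference turned to -2.62 points when libraries were centred, a fall that passed (limma adjusted p = 0.000976). Without saline replicate 2 and uncentred, it was a rise of 0.669 points that passed (limma adjusted p = 0.0492). Klf9 and Zbtb16, both induced by glucocorticoids, rose by 5.80 and 7.55 points. Nr3c1, the receptor itself, averaged 5.13% ± 0.314 after LPS and 2.03% ± 0.263 in saline, under the 5% limit for testing.

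Cholinergic genes rose in 17 of 25 cases, beside 48.1% of all genes tested, and the other 8 did not pass. Their median was 4.72 points, and after centring 9 rose and 4 fell. Chrm1, the M1 muscarinic receptor, had 85.4, 85.9 and 85.8% after LPS, against 41.5, 46.0, 44.1 and 48.5% in saline. Colq, which anchors acetylcholinesterase at the neuromuscular junction, had 89.7, 85.8 and 94.4% after LPS, against 38.4, 34.9, 29.8 and 43.3% in saline, over 4 cytosines. Groups were far apart at both genes. Chrna6 and Chrnb3, nicotinic subunits, rose by 26.1 and 18.3 points. Ache, the target of DFP, stood at 1.67% ± 0.777 after LPS and 1.32% ± 0.580 in saline over 77 cytosines and was not tested for its low level.

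The last lists cover the methylation machinery, metabolism and the clock. Of 16 genes of DNA methylation, 10 rose and 1 fell, and after centring 7 rose and 6 fell. Dnmt1 and Tet2 averaged 46.6 and 28.7% after LPS, against 40.7 and 23.6% in saline, and Dnmt3l, the cofactor of germline methylation, averaged 93.5% after LPS and 55.5% in saline. Dnmt3a did not pass over the gene, at 23.8% ± 0.771 after LPS and 24.1% ± 0.610 in saline (limma adjusted p = 0.738), though centring turned this to a fall of -3.34 points that passed, and 1 of its promoter windows fell to 1.06% after LPS, against 12.8% in saline. Immune metabolism genes rose in 12 and fell in 1 of 19 cases (4 and 8 after centring), with the myeloid hexokinase Hk3 up by 22.8 points. Clock genes rose in 7 of 16 cases, beside 48.1% of all genes tested, and the other 9 missed the threshold (4 higher and 9 lower after centring). Per2 and Nr1d1 rose by 4.96 and 7.30 points. On the 28 of its 37 cytosines common to all tables used, Per2 stood at 22.2% after LPS and 23.6% in saline, so that its direction rests on the other cytosines. Bdnf, a neurotrophin, averaged 6.96% ± 0.837 after LPS and 3.75% ± 0.543 in saline, a rise that came to 0.0900 points and did not pass after centring.

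LPS blood at 12 h was then set against LPS blood at 6 and 24 h in 1 limma fit of all 14 blood libraries, on 60785 tiles of the cytosines common to the 3 blood tables. These contrasts do not involve the saline libraries except through the shared spread. Against 6 h, 0 tiles rose and 1 fell (0.00165% called), with 3618 tiles (5.95%) at an unadjusted p under 0.05. Against 24 h, 0 tiles rose and 0 fell (0.0% called), with 2192 tiles (3.61%) at an unadjusted p under 0.05 and a smallest adjusted p of 0.989. In the same fit 20407 tiles rose and 5477 fell at 12 h against saline (33.6% and 9.01% called). The median absolute difference was 1.95 points against 6 h and 1.70 points against 24 h, beside 5.07 points against saline, and the median SE was 2.59 to 2.77 points.

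The tile that fell lies on chromosome 17 (chr17:17909000-17909999), in no annotated protein-coding gene, the only kind of gene looked at. Its 5 cytosines averaged 8.70, 11.1 and 7.98% at 12 h, against 22.4, 24.97, 27.6 and 26.5% at 6 h, and 12.7, 14.3, 9.33 and 8.70% in saline. The difference from 6 h was -16.1 points (SE 2.13, limma adjusted p = 0.0395). That call was lost under 5 other settings, 1 of which leaves out tiles with so few cytosines, and when any 1 of 6 of the 7 LPS libraries was left out. All 3 libraries of 12 h lay below all 4 of 6 h and overlapped saline. The 3 comparisons of LPS blood with saline share the same 4 saline libraries. In the joint fit 18522 tiles rose and 6641 fell at 6 h (41.4% called, 30.5% higher and 10.9% lower), and 19185 rose and 6414 fell at 24 h (42.1% called, 31.6% higher and 10.6% lower).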

How the data were processed

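RRBS libraries of whole blood were compared, 3 of LPS 12 h and 4 of saline. The authors deposited 1 table per tissue and time, which holds a percent methylation from 0 to 100 for each cytosine of either strand, no read counts and no missing value. Depth is therefore unknown, no counting interval can be given, and precision comes from the spread between libraries alone. Per the submitters' processing notes, the tools were Bismark, Bowtie2, methylKit, SAMtools, FastQC and Trim Galore, with GRCm38/mm10. The sources used here do not give their roles, versions and settings, nor a coverage minimum or normalisation. Groups came from the labels. The saline values were identical in the 3 blood tables, and no pair of libraries had equal values at more than 41.2% of cytosines.

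Means were taken over 1000 bp tiles, promoter windows (1000 bases before to 500 after a gene start) and genes (with 1000 bp on either side), each with at least 3 cytosines. Gene spans were those of RefSeq protein-coding genes (GRCm38.p6). By the RefSeq promoter table, which was used without chromosome 18, 19136 windows of 17492 genes were placed. In R 4.3.3, limma 3.58.1 (trended eBayes after lmFit, two-sided, with Benjamini-Hochberg adjustment) tested features with a mean over the groups of 5 to 95%. Calls needed an adjusted p under 0.05 and at least 10 points for cytosines or 5 points for tiles and promoters. The fit was tested on simulated data. Levels set beside other times and brain used the 992039 cytosines found in all 5 tables read. Further work used Python 3.11.15, numpy 2.4.6, pandas 2.3.3 and scipy 1.17.1.

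Named were the 10 largest rises and falls among promoter windows with at least 5 cytosines and groups that do not overlap, up to 4 called genes of each of 28 lists, a set list of 13 genes, tiles called between LPS times, and 5 genes with the most called tiles in each direction. A few other list members are named beside their counts (granule genes, Padi4, Krt8, promoter windows of lists) and the genes of the brain check, all chosen after their values were seen. The comparison, lists and rules were chosen with earlier results of these data known. Alternatives were centring each library, a log2 ratio scale of percent, no limit on the mean, no variance trend, leaving out each library, a replicate block, at least 10 cytosines, larger minimum differences, 500 bp tiles and a fit of all blood groups.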

Additional observations from a re-analysis of the deposited data

Results flagged for a closer look

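In the 4 saline libraries, 1 value stood far from the other 3 in 5 of the 152 saline values examined, where chance flags about 1 in 20. At Ptprc, the gene of CD45, replicate 2 was at 38.4%, beside 20.3, 20.7 and 23.2% in the others. At Chrna6, replicate 3 was at 54.4%, beside 47.7 to 48.6% in the others. At Fkbp5, replicate 2 was at 6.57%, beside 5.85 to 5.92%, and without it the difference between LPS and saline was 0.669 points with a limma adjusted p of 0.0492. At Shank3, a scaffold protein of synapses, replicate 4 was at 29.2%, beside 31.1 to 31.3%. At the promoter window of P2rx7, the ATP-gated channel, replicate 1 was at 77.6%, beside 69.9 and 69.5% in replicates 2 and 4 and a value close to these in replicate 3. The LPS 12 h group has 3 libraries and was not examined in this way.

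The tile on chromosome 17 that differed between LPS 12 h and LPS 6 h, by -16.1 points, was flagged because the 2 times differ there under a test of the difference itself. The call was lost when any 1 of 6 of the 7 LPS libraries was left out and under 5 other settings.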

How the results depend on the processing

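Depth is unknown, saline and LPS differ in time as well as in injection, and 4 saline libraries with intermediate levels carry every call against saline. The direction of a small difference rests on the scale: with each library centred, 66867 cytosines fell, tiles went to 13740 higher and 20960 lower, promoters to 354 and 413, and genes to 2722 and 5517. Centring also turned Fkbp5 to -2.62 points and Tbx21 to -0.708 points. A minimum of 25 points left 54053 cytosines higher and 17107 lower, and one of 20 points left 8895 and 2640 tiles. At least 10 cytosines, which leaves fewer features to test, gave 2885 and 864 tiles and 270 and 45 promoters. The tile that fell against LPS 6 h was not called on the log2 ratio scale, without the limit on the mean, without the variance trend, with at least 10 cytosines or under the replicate block (0 tiles each), and leaving out 1 library gave 0 to 1 tiles lower and 0 to 1 higher, the cause not tested. The 1 higher came without LPS 6 h replicate 1, and the 0 lower came without LPS 12 h replicate 1, 2 or 3 or LPS 6 h replicate 2, 3 or 4.

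Same-numbered LPS and saline libraries deviated from their group means with correlations of 0.0672, 0.0112 and 0.0187 over tiles, so the numbers were not taken to pair samples, and LPS replicates 2 and 3 each correlated best with the other's number. The replicate block gave 20373 and 5789 tiles, 577 and 135 promoters, 5529 and 942 genes and 93851 and 29244 cytosines higher and lower. Over the 120 genes and 30 promoter windows rerun one by one (other list members were not), 1871 values under an alternative kept their direction and side of the threshold or stayed without a call, 21 lost and 2 gained a call, and 2 reversed.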

Other observations

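Long genes with many tiles held both directions at once. In Gse1 (chr8:120228501-120581383), 35 of 75 tested tiles rose and 17 fell, with differences from -46.5 to 60.3 points. In Prdm16, a regulator of brown fat and of blood stem cells, 25 of 49 tiles rose and 8 fell. In Sh3pxd2a, a scaffold of podosomes, 24 of 30 tiles rose and 2 fell, with a median difference of 14.7 points. In Wwox 26 of 67 tiles rose and 5 fell, and in Camta1 24 of 71 rose and 7 fell. Pxn, the focal adhesion protein paxillin, had 9 tiles lower and 6 higher of 23, Cmip had 8 lower and 7 higher of 25, and Cdh13 had 9 lower and 10 higher of 57. These genes were named for their number of called tiles, which grows with the number tested.

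Imprinted genes, which carry methylation on 1 parental copy, rose in 6 and fell in 2 of 28 cases (3 and 10 after centring), beside 56.0% of all genes called. At the Mcts2 retrogene inside H13, 29 cytosines stood at 94.4, 94.1 and 93.6% after LPS, against 53.3, 67.3, 51.3 and 56.0% in saline. On common cytosines the same stretch was at 88.8, 94.0 and 90.4% in LPS blood of 6, 12 and 24 h and at 35.1% in saline hippocampus and 28.4% in cortex. Zrsr1 averaged 33.6% ± 5.46 after LPS (n = 3) and 42.2% ± 0.531 in saline (n = 4), and Usp29 averaged 70.6 and 57.9%. Germ cell genes, methylated in somatic tissue, rose in 5 of 12 cases, beside 48.1% of all genes tested. Ddx4 stood at 94.7% after LPS and 71.6% in saline. On the X chromosome 14.7% of 1190 tested tiles rose and 8.07% fell, beside 34.6% and 9.92% of all tiles tested, and chromosomes were not tested against each other.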
